A study of Drosophila melanogaster with 17 samples.

Results

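Mitochondrial ribosomal proteins are named in Drosophila with the prefix mRpL for the large subunit and mRpS for the small subunit. The genes described here are those in the normalized array table whose platform annotation gives a single symbol with either prefix. They numbered 69 of 8938 genes, with 44 mRpL and 25 mRpS genes, measured by 71 probe sets. Where a gene had 2 probe sets, which held for mRpL47 and mRpS11, the brighter over all arrays was used. The probe sets of mRpL53 and mRpS10 were each annotated to a second gene as well and were left out, and mRpL34 and mRpL37 were not analysed here.

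The study measured RNA of adult whole brains of Drosophila melanogaster on 17 Affymetrix arrays. Each array held 4 pooled brains of both sexes. C17 (3 arrays) is a null mutant that lacks moody, a receptor of the G protein-coupled class made by the glia that seal the fly blood-brain barrier. PMdr65 (3 arrays) is a null mutant of Mdr65, an ABC drug transporter of the same barrier. UAS_control (3 arrays) carries a UAS-Mdr65-RNAi transgene with no driver named, and per the design text its genetic background is similar to that of the mutants. WT_old (5 arrays) and WT_new (3 arrays) are wild-type Canton S flies, and the design text places the processing of WT_new on another day than that of the mutants. The series names WT_new as the main control, WT_old as a control against batch and UAS_control as a control against background. The labels give no processing day for WT_old or UAS_control. Each mutant is a single line, all flies were kept at a low or at room temperature with no record of which, and whether the arrays within a group were cultured separately is not stated in the labels. P-values therefore measure the spread between these arrays, which may be technical.

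Mitochondrial ribosomes translate the few proteins that the mitochondrial genome still encodes, which are core subunits of the respiratory chain and of ATP synthase. Every protein of the mitochondrial ribosome is encoded in the nucleus, made in the cytosol and imported. Many of these proteins have no bacterial counterpart, and the particle is richer in protein and poorer in RNA than its bacterial relative. In flies, a mutation of the small subunit gene tko causes the seizure-like behaviour known as bang sensitivity, which ties this machinery to the function of the nervous system.

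Signals are log2 values of the RMA method, which fits background, a common distribution and probe effects over all arrays. A difference of 1 is a doubling, and levels of different probe sets cannot be compared. A gene was called when its difference between groups had an adjusted p under 0.05 in limma, a linear model fitted to all 13290 probe sets. All members were well measured. Their mean signals lay between 7.94 and 11.78 with a median of 8.99, and the lowest value of any member on any array was 7.68, for mRpL15. No member fell among the dimmest 40% of probe sets, which had means under 7.3. The spread within a group was small, with a median SD over members of 0.059 in C17, 0.086 in PMdr65, 0.090 in UAS_control, 0.098 in WT_old and 0.089 in WT_new. The labels matched the targeted genes. The moody signal was 2.17 ± 0.11 in C17 (SD, n = 3) and lay between 9.65 and 11.42 on the other 14 arrays. The Mdr65 signal was 4.69 ± 0.04 in PMdr65 (SD, n = 3) and lay between 9.35 and 11.23 on the other 14 arrays. Array medians ran from 7.856 to 7.991, and the brains had high neuronal marker signals, described with the other tissue markers.

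The mitochondrial ribosomal protein genes moved largely together, and the greater contrasts lay among the control groups. They were highest in WT_new and UAS_control, lowest in WT_old, and in between in both mutants. Each array was summarised by the median, over the 69 genes, of the deviation from the gene's own mean. This shift was 0.00, -0.10 and -0.04 in C17, -0.12, -0.06 and 0.04 in PMdr65, and 0.11, 0.14 and 0.18 in UAS_control. It was -0.08, -0.08, -0.11, -0.21 and -0.24 in WT_old and 0.24, 0.26 and 0.12 in WT_new. All 6 arrays of UAS_control and WT_new stood above all 11 arrays of the other groups, and the arrays of C17 and PMdr65 overlapped those of WT_old. Over all 8938 genes the group means of the same measure stayed between -0.02 and 0.01. In bulk brain RNA, a change in the share of cells and a change in RNA per cell cannot be told apart.

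**Figure D1:**
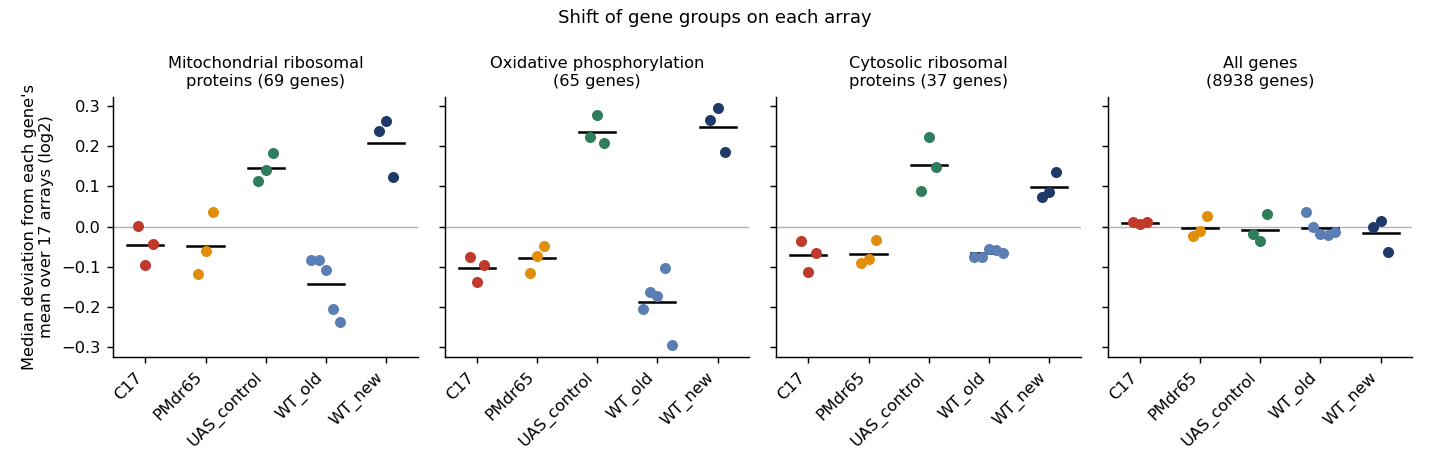
Median deviation (log2) of 4 gene groups from each gene's mean over the 17 arrays, by group; points are arrays and bars are group means. The mitochondrial ribosomal protein genes averaged -0.05 in C17 and PMdr65, 0.15 in UAS_control, -0.14 in WT_old and 0.21 in WT_new, while all genes stayed near 0.

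The pattern was enriched among single genes but did not hold for all of them. WT_new had the highest group mean for 40 of the 69 genes, or 58%, against 19.9% of all genes. WT_old had the lowest for 39, or 56.5%, against 22.1% of all genes. PMdr65 had the lowest for 15, or 21.7%, and C17 for 7, or 10.1%, against 17.7% and 13.8% of all genes. The means of both mutants lay above WT_old and below both WT_new and UAS_control for 30 of 69 genes, or 43.5%, against 10.3% of all genes. On single arrays, the genes above their own mean numbered 35, 9 and 21 of 69 in C17, 14, 19 and 38 in PMdr65, and 52, 56 and 59 in UAS_control. They numbered 15, 18, 12, 8 and 6 in WT_old, against 65, 63 and 55 in WT_new.

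**Figure D2:**
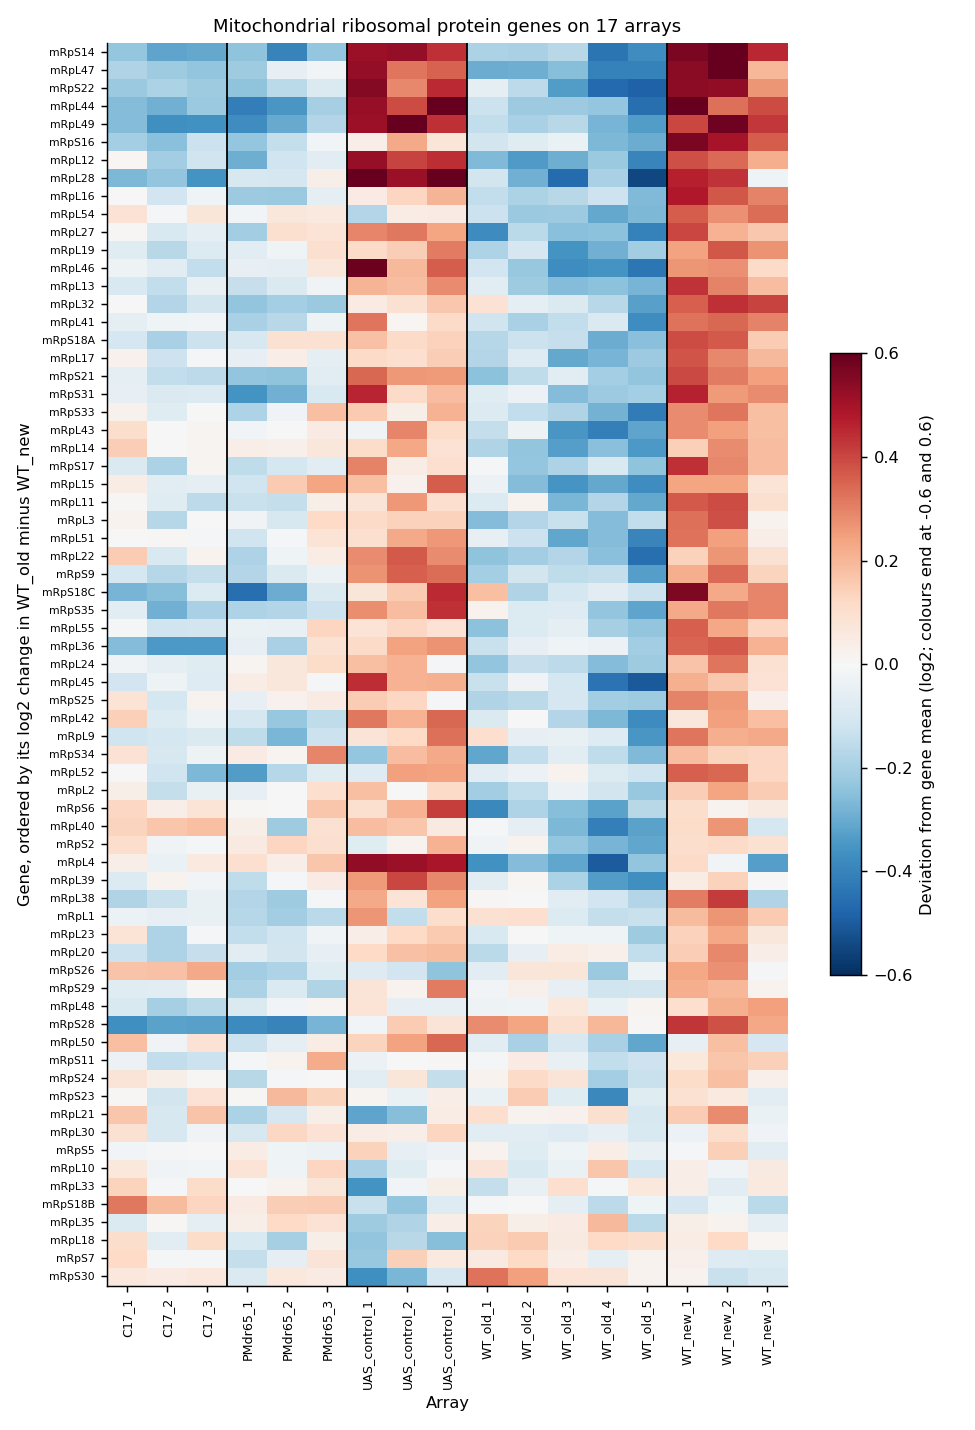
Deviation of each of the 69 genes from its own mean (log2, colours end at -0.6 and 0.6) on the 17 arrays, with genes ordered by the change in WT_old minus WT_new. UAS_control and WT_new are mostly above the mean and WT_old mostly below it; mRpS28 is low in all 6 mutant arrays, and mRpS30 at the bottom is high in WT_old.

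Of the comparisons between control groups, WT_old against WT_new changed the most members. In WT_old 55 members were lower than in WT_new and 1 was higher, with a median difference of -0.40. Of all genes, 21.0% were lower and 24.1% higher, with a median of 0.01. All WT_old arrays were below all WT_new arrays for 49 members, or 71%, against 18.7% of all genes. UAS_control stood above WT_old, with 50 members higher and 2 lower (27.3% and 27.3% of all genes) and a median difference of 0.30. All UAS_control arrays were above all WT_old arrays for 45 members, against 23.0% of all genes. UAS_control and WT_new differed less, with 1 member higher and 8 lower in UAS_control (8.41% and 6.4% of all genes) and a median of -0.08. The 95% interval of the UAS_control minus WT_new difference lay within -0.5 and 0.5 for 65 of 69 members. That count of 9 called members was 4 without WT_new replicate 1, 5 without UAS_control replicate 2, and 0 in a limma fit to these groups' arrays alone, where 9 members had an unadjusted p under 0.05.

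The result for a mutant therefore depended on the control group. In C17, 38 members were lower and 1 higher than in WT_new (17.9% and 24.1% of all genes), with a median difference of -0.27. Against UAS_control, 29 members were lower and 4 higher in C17 (20.4% and 23.2% of all genes), with a median of -0.18. Against WT_old, 2 members were lower and 10 higher in C17 (8.03% and 11.6% of all genes), with a median of 0.08. All C17 arrays were below all WT_new arrays for 44 members (25.5% of all genes), below all UAS_control arrays for 42 (25.8%) and above all WT_old arrays for 18 (17.7%). The count of 12 called against WT_old was 6 without C17 replicate 1 and 7 without C17 replicate 3.

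PMdr65 gave the same order. Against WT_new, 39 members were lower and 1 higher in PMdr65 (19.6% and 23.6% of all genes), with a median of -0.24. Against UAS_control, 33 were lower and 2 higher (20.0% and 21.1% of all genes), with a median of -0.23. Against WT_old, 2 were lower and 14 higher (13.2% and 15.3% of all genes), with a median of 0.09. All PMdr65 arrays were below all WT_new arrays for 43 members (25.7% of all genes), below all UAS_control arrays for 40 (24.7%) and above all WT_old arrays for 19 (18.4%). The count of 16 called against WT_old was 9 without PMdr65 replicate 2 and 7 without PMdr65 replicate 3. The comparisons of the 2 mutants share their control arrays, so the likeness of these counts is not independent evidence. No member changed by more than 1 on the log2 scale in any comparison, and the median standard error of a difference was 0.09 between groups of 3 arrays. Since WT_new was processed on another day, its difference from the mutants cannot be told apart from that day, and the difference between the results against WT_new and against WT_old is itself the tested contrast of WT_old and WT_new above.

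**Figure D3:**
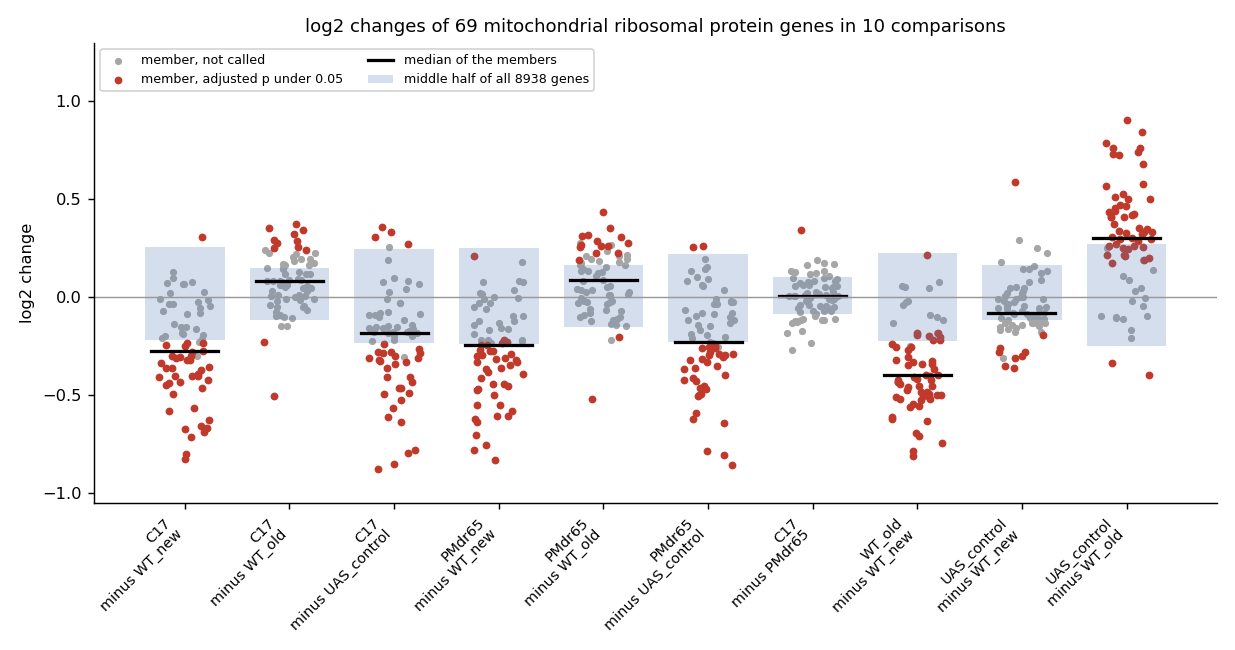
The log2 change of each of the 69 genes in 10 comparisons, the first-named group minus the second; red points had an adjusted p under 0.05 in limma, black bars are medians of the members and shaded boxes run from the lower to the upper quartile of all 8938 genes. The members sit low in both mutants against WT_new and UAS_control, near 0 against WT_old, and lowest in WT_old minus WT_new (median -0.40).

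The brains also differed in the RNA of adjoining tissues, in an order that partly followed the same groups. Of 10 listed eye markers 4 were measured (trp, Arr1, Arr2 and chp), and their mean signal was 5.76 to 6.26 in C17, 6.0 to 6.65 in PMdr65, 9.61 to 11.06 in UAS_control, 5.79 to 6.45 in WT_old and 6.66 to 11.21 in WT_new. Of 13 muscle markers 10 were measured, with means of 5.34 to 5.77 in C17, 5.47 to 5.92 in PMdr65, 6.70 to 9.26 in UAS_control, 5.21 to 5.66 in WT_old and 6.10 to 6.77 in WT_new. In PMdr65, 8 of the 10 were lower than in UAS_control and 1, TpnC4, was higher (20.0% and 21.1% of all genes). Of 8 fat body markers 5 were measured (Lsp2, Yp1, Yp2, Yp3 and apolpp), with means of 9.43 to 10.16 in C17, 9.72 to 11.15 in PMdr65, 10.13 to 11.46 in UAS_control, 6.89 to 7.90 in WT_old and 9.86 to 11.29 in WT_new. In PMdr65, 2 of the 5 were lower than in UAS_control and 1, Lsp2, was higher (20.0% and 21.1% of all genes). Of 5 haemocyte markers 4 were measured, at 3.97 to 4.76 in C17, 4.44 to 5.08 in PMdr65, 4.91 to 5.69 in UAS_control, 3.79 to 4.99 in WT_old and 4.40 to 4.73 in WT_new.

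Markers of the brain's own cells also differed between groups. Of 6 neuronal markers 4 were measured (elav, nSyb, brp and para), with means of 12.07 to 12.12 in C17, 12.00 to 12.06 in PMdr65, 12.04 to 12.08 in UAS_control, 12.15 to 12.27 in WT_old and 12.01 to 12.07 in WT_new. All WT_old arrays were above all others, where the ribosomal protein genes were lowest. The neuronal RNA-binding protein gene elav had signals of 11.79 to 11.82 in C17, 11.73 to 11.74 in PMdr65, 11.51 to 11.66 in UAS_control, 11.89 to 11.99 in WT_old and 11.50 to 11.66 in WT_new. The elav signal was thus highest in WT_old, lowest in UAS_control and WT_new and in between in both mutants, without overlap between these levels. The other neuronal markers did not share this order. The para signal was 10.81 to 10.94 in C17 and 10.73 to 10.94 in PMdr65, below 11.01 to 11.14 in UAS_control and 10.98 to 11.12 in WT_new. In WT_old para was at 10.91 to 11.25. The brp signals of both mutants overlapped those of UAS_control and WT_new, and nSyb in PMdr65 overlapped UAS_control. Of the 4 markers, 2 were higher in WT_old than in WT_new (24.1% of all genes) and 3 lower in PMdr65 than in WT_old (13.2%). Of 8 glial markers 7 were measured, including moody and Mdr65, the genes with null mutations, with means of 9.51 to 9.57 in C17, 10.29 to 10.32 in PMdr65, 10.27 to 10.36 in UAS_control, 9.82 to 10.21 in WT_old and 9.91 to 10.20 in WT_new. The means of the mutants hold moody at 2.17 in C17 and Mdr65 at 4.69 in PMdr65, and so do not measure the share of glia. In C17, 3 of the 7 were higher and 1, moody, lower than in WT_new (24.1% and 17.9% of all genes). Against WT_old 4 were higher and 1 lower in C17 (11.6% and 8.03%). Against UAS_control 1 was higher and 2 lower in C17 (23.2% and 20.4%). In PMdr65, 3 were higher and 1, Mdr65, lower than in WT_new (23.6% and 19.6%). Against WT_old 5 were higher and 1 lower in PMdr65 (15.3% and 13.2%). Against UAS_control 4 were higher and 1 lower in PMdr65 (21.1% and 20.0%). Against all 3 control groups, 1 was higher and 1 lower in C17 (4.37% and 2.27%), and 3 and 1 in PMdr65 (5.87% and 3.18%). The glial marker alrm, picked after its values were seen, was at 11.25 to 11.81 in WT_old, below all other arrays. It was at 11.92 to 11.96 in C17, 12.05 to 12.14 in PMdr65, 12.13 to 12.37 in UAS_control and 11.94 to 12.24 in WT_new. The signals of every other measured glial marker overlapped between WT_old and WT_new. The part of neuronal and glial RNA in the members' differences was not tested.

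The markers and the ribosomal protein genes did not keep the same order array by array. WT_new replicate 3 had the highest eye marker deviation of all arrays, 4.00, and the lowest member shift of its group, 0.12. WT_new replicates 1 and 2 had eye marker deviations of -0.59 and 0.40, far below those of UAS_control, and the highest member shifts of all arrays, 0.24 and 0.26. Without WT_new replicate 3 and UAS_control replicate 2, the array with the most muscle signal, 54 members were lower in WT_old than in WT_new and none higher, with a median of -0.45. Without these arrays, 41 members were lower in C17 and 42 in PMdr65 than in WT_new. Against UAS_control 31 members were lower in C17 and 31 in PMdr65. UAS_control replicates 1 and 3, which remained, had eye marker deviations of 2.22 and 3.36 and muscle marker deviations of 1.1 and 0.66. These counts therefore cannot separate the members from eye or muscle RNA. The part of eye, muscle and fat body RNA in the members' differences, the low values of WT_old among them, was not tested.

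**Figure D4:**
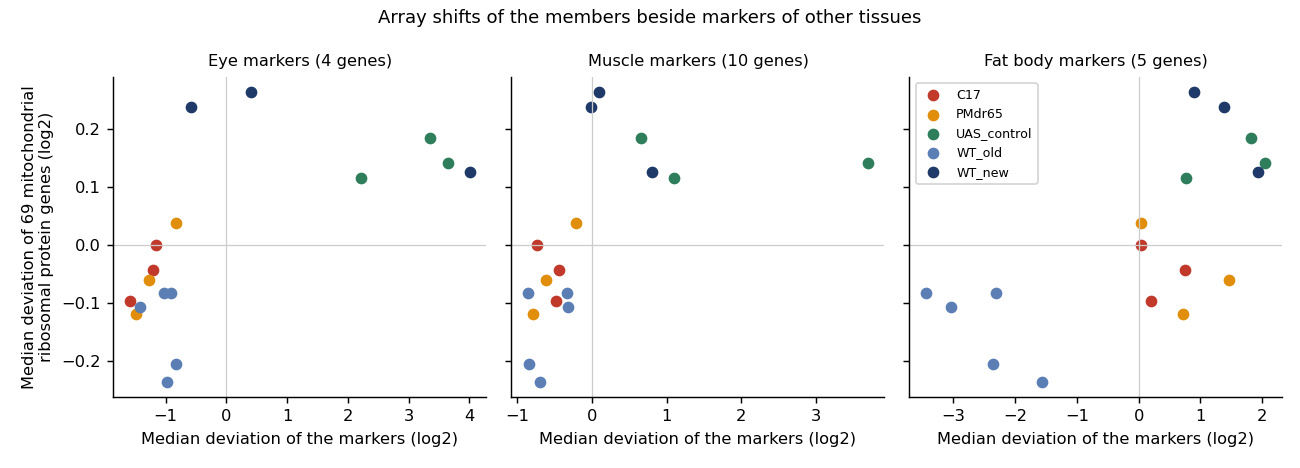
Median deviation (log2) of the 69 genes on each array against that of eye, muscle and fat body markers on the same array; colours are groups. WT_new replicates 1 and 2, near 0 on the eye axis, have the highest member values, 0.24 and 0.26, and the 5 WT_old arrays are lowest on the fat body axis.

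Both subunits moved. In WT_old, 36 of 44 large subunit and 19 of 25 small subunit genes were lower than in WT_new (21.0% of all genes), with medians of -0.40 and -0.34. In C17, 25 large and 13 small subunit genes were lower than in WT_new (17.9% of all genes), and 18 and 11 were lower than in UAS_control (20.4%). Against WT_old, 1 large and 1 small subunit gene were lower in C17 (8.03%), and 8 and 2 were higher (11.6%). In PMdr65 25 large and 14 small subunit genes were lower than in WT_new (19.6% of all genes), and 22 and 11 than in UAS_control (20.0%). Against WT_old, 1 large and 1 small subunit gene were lower in PMdr65 (13.2%), and 10 and 4 were higher (15.3%). Proteins whose number is used in the bacterial ribosome, up to L36 and S21 (40 genes), and those with higher numbers (29 genes) had medians of -0.41 and -0.37 in WT_old minus WT_new. In C17 minus WT_new they had medians of -0.27 and -0.27, and in PMdr65 minus WT_new -0.24 and -0.27. Assignment to a subunit follows the fly symbol, although in mammals the homologues of mRpS18A and mRpS30 sit on the large subunit.

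Some members with wide ranges of group means had UAS_control and WT_new apart from the other groups. mRpS14, the homologue of a protein in the head of the bacterial small subunit, had signals of 8.86, 8.77 and 8.78 in C17, 8.85, 8.69 and 8.86 in PMdr65, 9.60, 9.62 and 9.53 in UAS_control, 8.90, 8.90, 8.92, 8.65 and 8.72 in WT_old and 9.65, 9.69 and 9.54 in WT_new. The 6 arrays of UAS_control and WT_new were all above the other 11. The change in C17 was -0.82 ± 0.08 (SE) against WT_new (adjusted p = 2e-06), -0.78 against UAS_control and -0.01 against WT_old. In PMdr65 it was -0.83, -0.79 and -0.02 in the same order. WT_old minus WT_new was itself -0.81.

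Among large subunit proteins, mRpL44, which is related to RNase III in yeast and mammals, behaved likewise. Its signals were 8.64, 8.62 and 8.68 in C17, 8.49, 8.55 and 8.70 in PMdr65, 9.42, 9.29 and 9.60 in UAS_control, 8.77, 8.68, 8.69, 8.67 and 8.45 in WT_old and 9.55, 9.23 and 9.30 in WT_new. Again no array of UAS_control or WT_new overlapped the rest. mRpL49, a protein with no bacterial counterpart, changed by -0.80 in C17 and -0.75 in PMdr65 against WT_new, and by -0.85 in C17 and -0.80 in PMdr65 against UAS_control. Against WT_old it differed by -0.11 in C17 (adjusted p = 0.30) and -0.06 in PMdr65 (adjusted p = 0.56).

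mRpL47, the homologue of bacterial L29 at the exit of the peptide tunnel, changed by -0.79 in WT_old minus WT_new, and its second probe set gave -0.73. mRpS22, a small subunit protein specific to mitochondria, changed by -0.74 in the same comparison. mRpL12, which forms the flexible stalk that recruits translation factors and which was picked after its values were seen, differed by -0.62 in WT_old minus WT_new and 0.76 in UAS_control minus WT_old. It changed by -0.42 in C17 and -0.47 in PMdr65 against WT_new.

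mRpL28 and mRpL4 were highest in UAS_control. mRpL28, a homologue of bacterial L28, had signals of 8.05, 8.08 and 7.96 in C17, 8.22, 8.22 and 8.35 in PMdr65, 8.93, 8.84 and 8.95 in UAS_control, 8.21, 8.03, 7.86, 8.12 and 7.77 in WT_old and 8.79, 8.75 and 8.29 in WT_new. It had the widest range of group means of all members, 0.91. The UAS_control arrays were above all others, though UAS_control minus WT_new was only 0.29 (adjusted p = 0.13).

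mRpL4, a homologue of bacterial L4, which lines the peptide tunnel, had signals of 8.98, 8.90 and 9.0 in C17, 9.04, 8.98 and 9.11 in PMdr65, 9.47, 9.46 and 9.43 in UAS_control, 8.58, 8.68, 8.63, 8.44 and 8.70 in WT_old and 9.05, 8.92 and 8.61 in WT_new. The 3 UAS_control arrays were above the other 14. mRpL4 was the only member called higher in UAS_control than in WT_new, by 0.59 (adjusted p = 0.000678), and this call was lost in the fit to these groups' arrays alone (adjusted p = 0.0561). It was higher in both mutants than in WT_old, by 0.35 in C17 and 0.44 in PMdr65, and lower than in UAS_control, with changes of -0.49 in C17 and -0.41 in PMdr65.

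mRpL40, mRpS6, mRpL14 and mRpL15 stood out against WT_old, and all 4 were also lower in WT_old than in WT_new. mRpL40, a large subunit protein with no bacterial counterpart, was higher by 0.37 in C17 and differed by 0.18 in PMdr65 (adjusted p = 0.20). mRpS6 was higher by 0.34 in C17 and 0.32 in PMdr65, and mRpL14 by 0.32 and 0.31; both have bacterial counterparts of the same number. mRpL15 was higher by 0.36 in PMdr65 and differed by 0.24 in C17 (adjusted p = 0.099). The calls of mRpL40 in C17 and of mRpL15 in PMdr65 were each lost in 3 of 27 settings, among them the removal of replicate 2 or of replicate 3 of the mutant in question. Against WT_new, these 4 genes gave changes between -0.21 and 0.07 in the mutants, none of them called.

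Against all 3 control groups at the same time, very few members differed. In C17 2 members were lower and 1 higher (2.27% and 4.37% of all genes). In PMdr65 1 was lower and none higher in limma (3.18% and 5.87% of all genes); at an unadjusted p under 0.05, 1 member was higher, mRpS18B. The shares among the members were thus close to or below those of all genes. mRpS28 was the member lower in both mutants, a pattern met by 1.12% of all genes.

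mRpS28 encodes a small subunit protein. Its signals were 8.62, 8.67 and 8.66 in C17, 8.61, 8.59 and 8.71 in PMdr65, 8.97, 9.14 and 9.06 in UAS_control, 9.27, 9.22, 9.08, 9.19 and 8.99 in WT_old and 9.42, 9.37 and 9.22 in WT_new. All 6 mutant arrays were below all 11 control arrays, where 3.82% of all genes had the C17 arrays below and 4.77% the PMdr65 arrays. In C17 the change was -0.69 ± 0.08 (SE) against WT_new (adjusted p = 1.03e-05), -0.50 against WT_old and -0.41 against UAS_control, which are 0.622, 0.706 and 0.754 times the control levels. In PMdr65 it was -0.70, -0.52 and -0.42, or 0.615, 0.698 and 0.745 times. The largest of the 6 adjusted p-values was 0.000789, and the call stood in both mutants under all 27 other settings tried. The setting with the second probe set repeats the main fit for mRpS28, which has a single probe set.

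In the RefSeq annotation mRpS28 overlaps CG10927, so probes could in part read the other gene. In C17 CG10927 differed by -0.05 from WT_new, -0.28 from WT_old and -0.01 from UAS_control, and in PMdr65 by -0.03, -0.26 and 0.01. Against WT_old these differences had the direction of those of mRpS28 and were not called (adjusted p = 0.0801 in C17 and 0.0824 in PMdr65). The next measured neighbours, CG5323, CG5327 and CG5493, were not called against all 3 control groups in either mutant.

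mRpL36, the homologue of the smallest protein of the bacterial large subunit, was lower in C17. Its signals were 8.92, 8.83 and 8.83 in C17, 9.13, 8.98 and 9.27 in PMdr65, 9.29, 9.42 and 9.45 in UAS_control, 9.05, 9.13, 9.15, 9.15 and 8.97 in WT_old and 9.53, 9.55 and 9.39 in WT_new. The C17 arrays were below all others, and the PMdr65 arrays overlapped WT_old. The change in C17 was -0.63 against WT_new, -0.23 against WT_old (adjusted p = 0.0343) and -0.53 against UAS_control. The call against all 3 groups was lost in 8 of 27 other settings, among them the removal of any single C17 array or of WT_old replicate 2, 3 or 4. In PMdr65 the change was -0.36, 0.04 and -0.26 in the same order, with an adjusted p of 0.725 against WT_old. C17 minus PMdr65 was -0.27 (adjusted p = 0.0578).

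mRpS18B went the other way. It encodes a homologue of bacterial S18, of which flies have 3 in mitochondria, and its probe set carries the suffix s_at, which marks probes that may read more than 1 transcript. Its signals were 8.96, 8.84 and 8.77 in C17, 8.70, 8.79 and 8.80 in PMdr65, 8.51, 8.41 and 8.57 in UAS_control, 8.64, 8.65, 8.59, 8.49 and 8.62 in WT_old and 8.54, 8.62 and 8.49 in WT_new. All arrays of C17 and of PMdr65 were above all 11 control arrays, which held for 7.13% and 7.51% of all genes. In C17 the change was 0.31 against WT_new, 0.26 against WT_old and 0.36 against UAS_control, with a largest adjusted p of 0.00745, and the call was lost in 2 of 27 other settings, without C17 replicate 1 and with the replicate number as a block. In PMdr65 it was 0.21, 0.16 and 0.26, and the middle value, against WT_old, was not called (adjusted p = 0.0553). The call in PMdr65 against WT_new was lost in 6 of 27 settings, among them those without WT_new replicate 1 or 3 or PMdr65 replicate 2 or 3.

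The other S18 homologues, picked here for comparison after their values were seen, moved with the bulk of the members. mRpS18A changed by -0.45 in C17 and -0.28 in PMdr65 against WT_new. Against WT_old it was higher by 0.23 in PMdr65 and differed by 0.05 in C17 (adjusted p = 0.63). mRpS18C changed by -0.57 in C17 and -0.64 in PMdr65 against WT_new, and by -0.43 in C17 and -0.50 in PMdr65 against UAS_control. Against WT_old mRpS18C differed by -0.15 in C17 (adjusted p = 0.41) and -0.22 in PMdr65 (adjusted p = 0.16). Among the genes next to mRpS18B, nesd was lower in PMdr65 against all 3 control groups, with changes of -1.29, -0.52 and -0.53 against WT_new, WT_old and UAS_control.

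**Figure D5:**
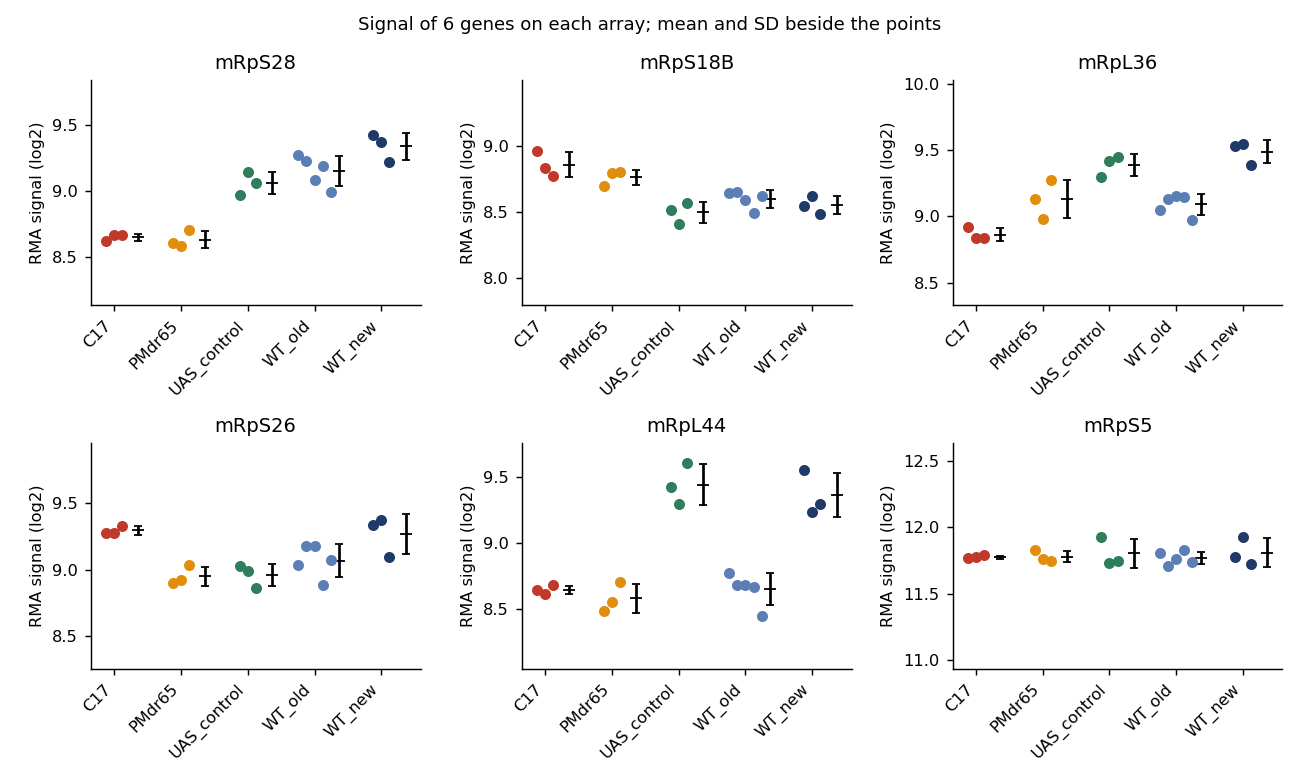
RMA signals (log2) of 6 genes on each of the 17 arrays, with the group mean and SD beside the points; each panel spans the same number of log2 units. mRpS28 is low and mRpS18B high in both mutants, mRpL36 is lowest in C17, mRpS26 is higher in C17 than in PMdr65, mRpL44 follows the split of the control groups, and mRpS5 is level at about 11.8.

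Between the 2 mutants a single member was called. In C17 minus PMdr65, 1 member was higher and none lower (3.71% and 3.23% of all genes), and 4 members had an unadjusted p under 0.05. The changes ran from -0.27 to 0.34 with a median of 0.01, and the 95% intervals of 67 of 69 members lay within -0.5 and 0.5. mRpS26, a small subunit protein specific to mitochondria, had signals of 9.28, 9.28 and 9.33 in C17 and 8.90, 8.92 and 9.03 in PMdr65. In the control groups they were 9.03, 8.99 and 8.86 in UAS_control, 9.03, 9.17, 9.17, 8.88 and 9.07 in WT_old and 9.33, 9.38 and 9.10 in WT_new.

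The C17 and PMdr65 arrays of mRpS26 did not overlap, and the C17 arrays fell within the range of WT_new. The C17 minus PMdr65 difference was 0.34 ± 0.09 (SE, adjusted p = 0.0251). The call was lost when any C17 array, PMdr65 replicate 1 or PMdr65 replicate 2 was left out, and stood without PMdr65 replicate 3. Without PMdr65 replicate 2, mRpL36 was called instead, with a C17 minus PMdr65 difference of -0.34. Against UAS_control mRpS26 was higher by 0.34 in C17, and against WT_new it changed by -0.32 in PMdr65.

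A few members ran against the rest. mRpS30 was the only member higher in WT_old than in WT_new, by 0.22 (adjusted p = 0.0342), a call lost in 9 of 27 other settings, among them those without WT_new replicate 2 or 3 or without WT_old replicate 1 or 2. Its signals were 9.89, 9.88 and 9.89 in C17, 9.74, 9.89 and 9.88 in PMdr65, 9.46, 9.56 and 9.73 in UAS_control, 10.15, 10.08, 9.91, 9.90 and 9.85 in WT_old and 9.85, 9.70 and 9.73 in WT_new. WT_old arrays were above all UAS_control arrays, and UAS_control minus WT_old was -0.40. Against UAS_control mRpS30 was higher by 0.31 in C17 and 0.26 in PMdr65, calls lost without UAS_control replicate 1 and, in PMdr65, also without UAS_control replicate 2 or PMdr65 replicate 2 or 3. mRpL18, the homologue of a bacterial protein that binds 5S ribosomal RNA, changed in UAS_control by -0.28 against WT_new and by -0.34 against WT_old. It was higher by 0.27 in C17 than in UAS_control, and changed by -0.20 in PMdr65 against WT_old, a call lost without PMdr65 replicate 1 or 2.

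Among the 8 members lower in UAS_control than in WT_new, mRpS16 changed by -0.36, mRpL54 by -0.35, mRpS26 by -0.31 and mRpL32 by -0.30. The call of mRpL32 was lost in 8 of 27 settings, including removal of any WT_new array or of UAS_control replicate 1 or 2. That of mRpS26 was lost in 5, including removal of WT_new replicate 1 or 2 or UAS_control replicate 2 or 3, and that of mRpS16 in 2, including removal of WT_new replicate 1. mRpL32 is matured by the m-AAA protease in yeast and mouse. mRpL10, mRpL30, mRpS7 and mRpS5 had the narrowest ranges of group means and were called in none of the 10 comparisons. mRpS5, homologue of a bacterial protein of the mRNA entry site, had group means of 11.78 in C17, 11.78 in PMdr65, 11.80 in UAS_control, 11.77 in WT_old and 11.81 in WT_new. The probe sets of mRpS11 did not agree: in WT_old minus WT_new the brighter gave -0.18 and the other 0.20, the second not called.

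Other parts of the mitochondrial translation system went with the ribosomal proteins in part. The 2 mitoribosomal proteins with names of their own, tko (S12) and bonsai (S15), differed from each other. Against WT_new, bonsai changed by -0.46 in C17, -0.46 in PMdr65, -0.42 in UAS_control and -0.40 in WT_old, so WT_new alone stood apart. tko changed by -0.27 in PMdr65 and -0.24 in UAS_control against WT_new, and differed by -0.15 in C17 (adjusted p = 0.0916).

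Of 12 listed translation factors 10 were measured. Of these, 5 were lower and 1 higher in C17 than in WT_new, and 6 were lower in PMdr65 and none higher. Of all genes, 17.9% were lower and 24.1% higher in C17, and 19.6% and 23.6% in PMdr65. HemK1, which in mammals methylates release factors, changed by -0.80 in C17 and -0.75 in PMdr65 against WT_new. mEFTu1, the elongation factor that brings charged tRNA to the ribosome, changed by -0.61 in C17 and -0.47 in PMdr65 against WT_new, and by -0.85 and -0.71 against UAS_control. Against WT_old neither gene was called in a mutant. The initiation factor mIF3 was higher in C17 by 0.36 against WT_new and 0.63 against UAS_control.

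Of 17 measured genes for tRNA charging, 6 were lower in C17 and 5 in PMdr65 than in WT_new, and none higher. Of all genes, 17.9% were lower in C17 and 19.6% in PMdr65, and 24.1% and 23.6% higher. PheRS-m, the phenylalanine enzyme, changed by -0.44 in both. Of 14 measured genes for mitochondrial transcription and RNA handling, 1 was lower in C17 and 3 in PMdr65 than in WT_new, and none higher. The counts of lower genes in this list were below or close to the same shares of all genes. TFAM, which packages mitochondrial DNA, and PolrMT, the mitochondrial RNA polymerase, were not called in either mutant against any control group. No gene of these lists was called against all 3 control groups. Of all genes, 2.27% were lower and 4.37% higher in C17 by this rule, and 3.18% and 5.87% in PMdr65.

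Of 6 measured regulators and proteases, ClpP was higher in both mutants against all 3 control groups, as were 2.42% of all genes. ClpP is the proteolytic subunit of a matrix protease that takes part in the mitochondrial unfolded protein response in worms. Its signals were 10.43, 10.59 and 10.51 in C17, 10.80, 10.77 and 10.87 in PMdr65, 10.12, 10.34 and 10.09 in UAS_control, 10.19, 10.23, 10.31, 10.24 and 10.27 in WT_old and between 9.99 and 10.03 in WT_new. All mutant arrays were above all control arrays. The changes were 0.51, 0.27 and 0.33 in C17 and 0.81, 0.57 and 0.63 in PMdr65, against WT_new, WT_old and UAS_control, and C17 minus PMdr65 was -0.30 (adjusted p = 0.0128).

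ewg, the fly homologue of the transcription factor NRF-1, which in mammals drives nuclear genes of mitochondrial proteins, was higher in PMdr65 against all 3 groups, by 0.58, 0.17 and 0.51. In C17 it was higher by 0.48 against WT_new and 0.41 against UAS_control and differed by 0.07 from WT_old. In WT_old ewg was higher by 0.41 than in WT_new, where most ribosomal protein genes were lower. The matrix protease Lon followed the ribosomal proteins, with -0.55, 0.12 and -0.55 in C17 and -0.48, 0.18 and -0.49 in PMdr65 against WT_new, WT_old and UAS_control, the middle value not called in either.

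The listed genes of oxidative phosphorylation showed the same order of groups. Of 65 measured, 49 were lower and 4 higher in C17 than in WT_new (17.9% and 24.1% of all genes). Against UAS_control 51 were lower and 4 higher (20.4% and 23.2%), and against WT_old 4 were lower and 11 higher (8.03% and 11.6%). In PMdr65 the numbers were 46 and 3 against WT_new (19.6% and 23.6% of all genes). They were 46 and 4 against UAS_control (20.0% and 21.1%), and 5 and 21 against WT_old (13.2% and 15.3%). In WT_old 54 were lower and 6 higher than in WT_new (21.0% and 24.1% of all genes), with a median of -0.43. Of 37 cytosolic ribosomal protein genes, 21 were lower and 2 higher in WT_old than in WT_new, with a median of -0.14. In C17 19 of these were lower than in WT_new (17.9% of all genes) and 4 lower than in WT_old (8.03%). None was higher in either (24.1% and 11.6% of all genes). Against UAS_control 23 were lower and none higher in C17 (20.4% and 23.2%). In PMdr65, 18 were lower and 1 higher than in WT_new (19.6% and 23.6%). Against WT_old 2 were lower and 3 higher in PMdr65 (13.2% and 15.3%). Against UAS_control 23 were lower and none higher in PMdr65 (20.0% and 21.1%). The mean shift of the cytosolic genes was highest in UAS_control, at 0.15, followed by 0.10 in WT_new. The difference between these lists and the mitochondrial ribosomal proteins was not tested.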

How the data were processed

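The authors deposited log2 signals, for which RMA was run on all arrays together per the file headers; affy, RMA and limma are named in the submitters' processing notes, with no version. The deposited series matrix held 13290 of 18769 probe sets that were not controls, and the tables differed by at most 0.005. How that filter was set is not stated in these sources. Of the probe sets, 10243 carried 1 symbol, 310 several and 2737 none. All 69 members were found by gene ID in the RefSeq annotation.

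The fit used limma 3.58.1 (R 4.3.3) with 1 mean per group over the 17 arrays, which left 12 residual degrees of freedom beside 2.93 of the prior, with Benjamini-Hochberg adjustment over all probe sets within each of 10 comparisons and a threshold of 0.05. Arrays of a group correlated at 0.9742 to 0.9967, no 2 arrays held identical values, and the number of arrays limits the precision.

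Named members were those called against all 3 control groups (up to 10 in each direction), the 4 called members that rose most and the 4 that fell most in each comparison, the 4 with the widest and the 4 with the narrowest range of group means, and any with probe sets called in opposite directions. tko, bonsai and genes of the other translation lists called against all 3 groups were added. Some further genes of those lists were picked as examples after their values were seen. Members, lists and tests were chosen with earlier results of these data known. The fit was tested on simulated data. Alternatives covered the table, normalization, variance prior, array weights, arrays in the fit, a replicate block, dim probe sets, the probe set of a gene and arrays left out.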

Additional observations from a re-analysis of the deposited data

Results flagged for a closer look

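mRpL22, a large subunit protein, had 1 value far from the others in WT_old. Replicate 5 was at 7.85 and the other 4 arrays lay between 8.06 and 8.13, a gap of 0.731 of the range of the group against a critical value of 0.71. It was the only case among the 70 sets of 5 arrays examined, and chance alone marks about 1 in 20.

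The mutants differed from each other in mRpS26, with C17 minus PMdr65 at 0.345 on the log2 scale.

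The probe set annotated to both CG33155 and mRpL53, which was not among the members, was higher in PMdr65 than in all 3 control groups, with a smallest log2 change of 0.188 against WT_new (adjusted p = 0.0340). It cannot be said which gene it reads.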

How the results depend on the processing

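No recomputed result was reversed. Of the calls of single named members, 1503 were unchanged and 63 were lost under another setting, and the medians of the members in the 10 comparisons stayed within the spread between replicates under all settings. The setting with the second probe set could change only mRpL47 and mRpS11, as every other member had a single probe set. The count of members lower in C17 against all 3 control groups was 1 on the unfiltered table and 1 with a replicate block, and that of members higher was 0 with the block. In PMdr65, mRpS18B made 1 member higher against all 3 groups under a further quantile normalization (1), median centring (1), array weights (1) and without the dimmest 40% of probe sets (1). C17 minus PMdr65 had 2 called members under quantile normalization, 2 under centring, 2 with a trended prior, 2 without dim probe sets and 4 with array weights, of which 1 was higher and 3 lower. PMdr65 minus WT_old had 26 under centring, 26 with array weights and 6 with the block. C17 minus WT_old had 26 with array weights and 4 with the block. UAS_control minus WT_new had 4 with array weights, 1 higher and 3 lower, and 0 with only the groups compared.

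With each array left out in turn, the members called numbered 32 to 42 in C17 minus WT_new, 6 to 16 in C17 minus WT_old, 29 to 37 in C17 minus UAS_control, 31 to 41 in PMdr65 minus WT_new, 7 to 21 in PMdr65 minus WT_old, 26 to 37 in PMdr65 minus UAS_control and 0 to 1 in C17 minus PMdr65. They numbered 45 to 56 in WT_old minus WT_new, 4 to 9 in UAS_control minus WT_new and 46 to 53 in UAS_control minus WT_old. Against all 3 groups they numbered 0 to 1 higher and 1 to 2 lower in C17, and 0 to 0 higher and 1 to 1 lower in PMdr65.

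Arrays with the same replicate number mostly did not deviate together: over 30 pairs the correlation ran from -0.47 to 0.41 and passed 0.1 in 4. The labels do not say that equal numbers pair arrays, and these correlations cannot settle it. With the replicate block WT_old minus WT_new had 1 member higher and 43 lower. The cause of these changes was not tested. The 3 arrays of most groups limit the precision of each difference.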
